A study of Mus musculus with 6 samples.

Results

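The genes described here are 10 inhibitors of MAP kinase signalling, of which the kinase cascade itself can induce several. They are the phosphatases Dusp1, Dusp2, Dusp4, Dusp5, Dusp6 and Dusp10, the Sprouty genes Spry1 and Spry2, and the Spred genes Spred1 and Spred2. They were chosen by symbol, and all 10 were found among the 13564 genes of the deposited normalized table. They were compared between 3 Foxo1TKO and 3 Foxo1Ctrl RNA-seq libraries of naive CD4 T (CD4N) cells from C57BL/6J mice, activated in vitro. Foxo1TKO mice carry floxed Foxo1 alleles and a CD4cre transgene, which deletes Foxo1 in thymocytes at the CD4+ CD8+ stage and so in both CD4 and CD8 T cells of the periphery. Foxo1Ctrl mice were their controls, in which Foxo1 is not deleted, and both lines carried a Foxp3-GFP reporter. The CD4N cells were thus already without Foxo1 when they were put in culture. Sorted lymph node CD4N cells were activated over 4 days by anti-CD3 at 0.1 µg/ml, presented by 250000 spleen cells of CD3εKO mice, a strain that lacks T cells. The study describes the mice of this experiment as young adults. The sources do not say whether replicates came from separate mice or cultures, nor whether T cells were separated from splenocytes before extraction, so the p-values measure the spread between these libraries only.

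Engagement of the T-cell receptor activates Ras through exchange factors of the RasGRP and SOS families, and Ras starts the Raf, MEK and ERK kinase cascade, while the JNK and p38 MAP kinases are activated in parallel branches. ERK signalling turns on its own inhibitors. Dual-specificity phosphatases (Dusp) remove the activating phosphates of MAP kinases, Sprouty proteins interfere with signalling between receptors and Raf, and Spred proteins bring the Ras GTPase-activating protein neurofibromin to the membrane. In T cells several of these genes are known to be induced within hours of stimulation and to limit the strength and length of the response. No unstimulated library was at hand, so induction was not measured here.

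Of the 10 genes, 7 were higher in Foxo1TKO than in Foxo1Ctrl cells, none was lower, and 3 did not pass the test. The 7 were Dusp1, Dusp2, Dusp4, Dusp5, Dusp10, Spry2 and Spred1, and the 3 were Dusp6, Spry1 and Spred2. Counts were scaled between libraries by edgeR's TMM method, and the quasi-likelihood test of edgeR was used for the genotypes, with p-values adjusted by Benjamini-Hochberg over the 13691 genes that had at least 10 counts in 3 or more libraries. A gene was called when its adjusted p was under 0.05 and its fold change over 1.5. By this rule 23% of all genes tested were called, 11.1% as higher and 11.8% as lower. The median log2 fold change of the 10 genes was 0.84, against 0.01 over all genes tested, and all 10 fitted values were above 0. The values of the genotypes did not overlap for the 7 called genes, a property shared by 42.7% of all genes tested. As a share of all counts, the 10 genes together took 0.0332 to 0.0417% in Foxo1TKO libraries and 0.0156 to 0.0235% in Foxo1Ctrl libraries.

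Several of the calls did not hold with 1 library fewer. With each library left out in turn, the number of the 10 genes called was 4 without Foxo1TKO 1, 2 without Foxo1TKO 2, 4 without Foxo1TKO 3, 2 without Foxo1Ctrl 1, 7 without Foxo1Ctrl 2 and 5 without Foxo1Ctrl 3. Over all genes tested, the shares called were 19.8, 13.5, 17.5, 14.8, 24.3 and 17% in the same order, against 23% with all 6 libraries. Dusp10 was the gene called in all 6 of these fits. The fold changes of the 7 called genes stayed above 0 in every one of the 6 fits.

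Foxo1 itself was measured first as a check of the labels. It averaged 82.2 ± 34.3 normalized counts in Foxo1TKO and 1804 ± 418 in Foxo1Ctrl libraries (mean ± SD, n = 3 each), a log2 fold change of -4.45 (SE 0.36, edgeR adjusted p = 0.000195). The libraries held 14783890 to 19675447 counts. T-cell markers (Cd3d, Cd3e, Cd3g, Cd2, Cd5, Cd4 and Lck) summed to 7504 to 8235 TPM (a level per transcript length, scaled to the same total in each library) in Foxo1TKO and 9003 to 9614 in Foxo1Ctrl libraries, and none of the 7 was called. Markers of some other cells differed too. Plasma-cell markers summed to 19.1 to 44.6 TPM in Foxo1TKO against 75.5 to 103.5 TPM in Foxo1Ctrl libraries. Among these, Jchain was called lower and Derl3 was not called (edgeR adjusted p = 0.501). Dendritic-cell markers (2.42 to 3.74 against 2.01 to 3.71 TPM) and erythroid markers (15.4 to 36.0 against 20.55 to 40.9 TPM) overlapped between genotypes, with none called. B-cell markers summed to 6.83 to 9.87 against 22.1 to 29.0 TPM, with 4 of 6 tested called lower and Pax5 too low to test, and NK-cell markers summed to 54.3 to 102 against 335 to 444 TPM, with Klrd1 called lower, Klrb1c not called (edgeR adjusted p = 0.340) and Ncr1 too low to test. Macrophage markers summed to 4.43 to 5.84 against 2.37 to 3.01 TPM, with 1 of 8 high enough to be tested and 3 at 3 counts or fewer in every library. Proliferation markers summed to 369.7 to 473 against 213 to 276 TPM, with 4 of 6 called higher. Mki67 (log2 fold change -0.12, edgeR adjusted p = 0.799) and Ccnb1 (0.14, 0.751) were not called. By dilution of a dye, the study itself reported reduced division of activated Foxo1-deficient cells. The part of these differences in the values below was not tested, and in bulk RNA fewer cells of a type and less RNA per cell cannot be told apart. Nor can it be told which cells a transcript came from. Among the NK-cell markers Klrd1 (805 ± 189 against 4153 ± 702 normalized counts) far exceeded Klrb1c (31.6 ± 15.3 against 51.3 ± 17.6).

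For 9 of the 10 genes the RefSeq promoter, from 250 bases before to 50 bases after the annotated start on GRCm38.p6, was at hand, and Dusp4 had none in the table. Dusp1 and Dusp5 are shown because theirs hold letters that match sites of factors of the immediate-early response, and Dusp2 because it holds a match for the EGR factors, whose gene Egr1 is described further on. All motifs were searched on both strands. The cAMP response element (CRE, TGACGTCA, bound by CREB and ATF factors) was in 1.79% of the 32851 promoters and, among the 9, in Dusp1 alone. Its 6-base core TGACGT, which lies within every CRE and is counted there too, was in 7.51% of promoters and in 3 of the 9 (Dusp1, Dusp5 and Spred2). The core of Spred2, a gene that did not pass the test, was at -52 on the opposite strand, and its promoter is not shown. The CArG box, the site of serum response factor, was in 1.63% of promoters and in Dusp5 alone, and the EGR motif GCGNGGGCG in 5.55% of promoters and in Dusp2 alone. Capitals below mark these matches, with the cores of Dusp1 at -191 and its CRE at -143 from the start, the abutting CArG boxes of Dusp5 at -82 and -72, its core on the opposite strand at -56, and the EGR match of Dusp2 at -98. Each sequence reads 5′ to 3′ on the strand of its gene.
Dusp1, chr17:26508596-26508675, minus strand: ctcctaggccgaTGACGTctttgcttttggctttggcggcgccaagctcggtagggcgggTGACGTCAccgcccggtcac
Dusp5, chr19:53529051-53529106, plus strand: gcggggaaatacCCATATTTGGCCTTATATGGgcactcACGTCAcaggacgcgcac
Dusp2, chr2:127336049-127336081, plus strand: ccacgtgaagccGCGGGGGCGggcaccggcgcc

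The forkhead motif GTAAACA, the core bound by Foxo factors, was in 3.65% of promoters and in 0 of the 9. The AP-1 motif TGANTCA (7.81% of promoters), the ETS motif CCGGAAGT (3.89%) and the TATA box TATAAA (13.6%) were also in 0 of the 9. The share of G and C bases in the 9 promoters lay at percentiles 62.57 to 93.55 of all promoters. The shares of promoters with each motif were not matched for it. A match describes letters in a window and not a bound site, and the absence of a match says only that these letters are not within these 300 bases.

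Dusp10 encodes a phosphatase that acts mainly on JNK and p38. The gene spans chromosome 1, 184013302 to 184075636, plus strand (GRCm38, GENCODE M21, also for the positions that follow). It had 2066, 2075 and 2101 normalized counts in Foxo1TKO 1, 2 and 3, against 1205, 1017 and 1401 in Foxo1Ctrl 1, 2 and 3. The Foxo1TKO libraries lay close together, with a coefficient of variation of 0.873% against 15.9% in controls, and each was above the highest control. Means were 2081 ± 18.2 and 1208 ± 192 normalized counts (mean ± SD, n = 3), a log2 fold change of 0.78 (SE 0.16, 95% CI 0.42 to 1.15, edgeR adjusted p = 0.0101). Leaving out any one library gave log2 fold changes of 0.69 to 0.90 and adjusted p-values of up to 0.0447 by the same test.

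Dusp1 encodes a nuclear phosphatase of p38, JNK and ERK and is an immediate-early gene. Dusp1 is on chromosome 17 from 26505590 to 26562128, minus strand, and its annotated exons overlap those of Ergic1 on the opposite strand. On that strand the GENCODE span begins at 26562128. The RefSeq promoter window shown for Dusp1 lies inside the span, so the annotations place the start differently. Since the strandedness of the counting is not given, reads of Dusp1 and Ergic1 may not be told apart in the shared stretch. Dusp1 had 1453, 1489.8 and 1240 normalized counts in Foxo1TKO 1, 2 and 3, and 853, 527 and 882 in Foxo1Ctrl 1, 2 and 3. No Foxo1TKO library fell within the range of the controls, of which Foxo1Ctrl 2 was the lowest. The means of 1394 ± 135 and 754 ± 197 normalized counts gave a log2 fold change of 0.89 (SE 0.22, 95% CI 0.38 to 1.40, edgeR adjusted p = 0.0228). The call was lost without Foxo1TKO 1 (edgeR adjusted p = 0.0501) and without Foxo1TKO 2 (0.0833), with log2 fold changes of 0.70 to 1.01 over the 6 fits.

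Dusp2 encodes a nuclear phosphatase first known from activated T cells and acting on ERK and p38. On chromosome 2 it runs from 127336159 to 127338376, plus strand. Dusp2 had 565, 555 and 555 normalized counts in Foxo1TKO 1, 2 and 3, and 287, 349.9 and 372 in Foxo1Ctrl 1, 2 and 3. As for Dusp10, the Foxo1TKO libraries were tightly grouped (coefficient of variation 0.979%, against 13.1% in controls) and did not overlap with controls. Whether the spread differs between genotypes was not tested, for Dusp2 or for Dusp10. The log2 fold change was 0.73 (SE 0.17, 95% CI 0.33 to 1.13, edgeR adjusted p = 0.0190) between means of 558 ± 5.47 and 336 ± 43.9 normalized counts. By edgeR the adjusted p rose to 0.0505 without Foxo1TKO 1, 0.0776 without Foxo1TKO 2, 0.0533 without Foxo1TKO 3 and 0.0816 without Foxo1Ctrl 1, where the call was lost, with log2 fold changes of 0.62 to 0.81 over all 6 fits.

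Dusp4 encodes a nuclear phosphatase of ERK and JNK. On chromosome 8 it runs from 34807297 to 34819894, plus strand. Its counts were low, at 200.3, 109.7 and 88.0 normalized counts in Foxo1TKO 1, 2 and 3 and 44.1, 34.3 and 45.5 in Foxo1Ctrl 1, 2 and 3. Every Foxo1TKO library was above the controls, and Foxo1TKO 1 stood well above the other two. Means of 133 ± 59.6 and 41.3 ± 6.12 normalized counts gave a log2 fold change of 1.66 (SE 0.37, 95% CI 0.82 to 2.51, edgeR adjusted p = 0.0142). The fold change was 1.23 (log2) without Foxo1TKO 1 and still called, whereas the call was lost without Foxo1Ctrl 1 (log2 fold change 1.71, edgeR adjusted p = 0.0506), and over the 6 fits the value ran from 1.23 to 1.88.

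Dusp5 encodes a nuclear phosphatase specific for ERK. It lies on chromosome 19 from 53529109 to 53542431, plus strand, where an antisense gene overlaps it. Dusp5 had 749.7, 727 and 499 normalized counts in Foxo1TKO 1, 2 and 3, and 237, 284 and 406 in Foxo1Ctrl 1, 2 and 3. The groups did not overlap, but the lowest Foxo1TKO library, Foxo1TKO 3, was only 1.23 times the highest control, Foxo1Ctrl 3. The log2 fold change was 1.09 (SE 0.26, 95% CI 0.49 to 1.69, edgeR adjusted p = 0.0197) between means of 659 ± 139 and 309 ± 87.2 normalized counts. The call was lost without Foxo1TKO 1 (edgeR adjusted p = 0.0528), Foxo1TKO 2 (0.0798) or Foxo1Ctrl 1 (0.0708), and the log2 fold changes of the 6 fits were 0.93 to 1.34.

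Dusp6, the cytoplasmic phosphatase specific for ERK, did not pass the test. The gene is on chromosome 10 from 99263231 to 99267489, plus strand. Normalized counts were 1112, 831 and 691 in Foxo1TKO 1, 2 and 3, and 672, 557 and 775 in Foxo1Ctrl 1, 2 and 3. Foxo1TKO 3 lay below Foxo1Ctrl 3, so the groups overlapped. The log2 fold change was 0.39 (SE 0.22, 95% CI -0.12 to 0.91, edgeR adjusted p = 0.245), an interval that includes both no change and the size measured for Dusp10.

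RSEM also reports an effective length for each gene and library, which is the abundance-weighted mean number of positions from which a fragment of its transcripts can come, so it moves when the mix of isoforms moves. Dusp6, with 4 annotated transcripts, was the one gene of the 10 whose effective lengths did not overlap between genotypes. These were 2431, 2393 and 2377 bases in Foxo1TKO 1, 2 and 3, and 2590.2, 2501 and 2447 bases in Foxo1Ctrl 1, 2 and 3. The Foxo1TKO mean was 112 bases shorter (2401 ± 27.4 against 2513 ± 72.1 bases, a change of -4.47%). A two-sided exact permutation test gave p = 0.1, the smallest that 3 against 3 libraries allow, and effective lengths without overlap were found for 9.72% of all genes tested. For the other 9 genes the same exact permutation test gave p-values of 0.2 to 0.9.

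**Figure D1:**
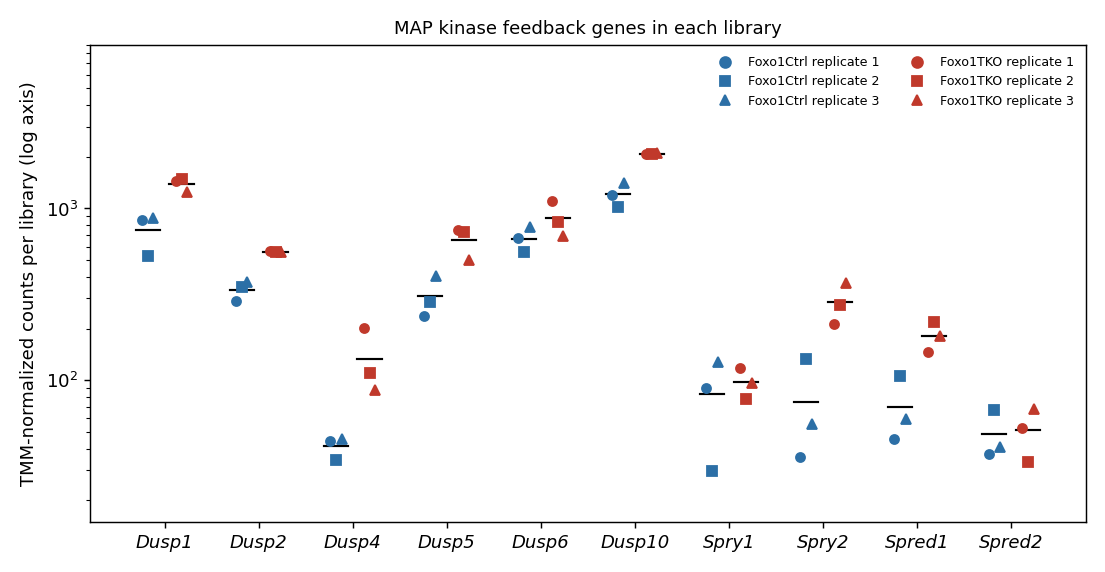
TMM-normalized counts (log scale) of each of the 10 genes in every library, with symbols for single Foxo1TKO (red) and Foxo1Ctrl (blue) libraries and short lines for the group mean (n = 3). The points of the genotypes are apart for Dusp1, Dusp2, Dusp4, Dusp5, Dusp10, Spry2 and Spred1 and overlap for Dusp6, Spry1 and Spred2.

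Spry2 had the largest fold change of the 10 with all libraries, although Dusp4 was above it without Foxo1TKO 3 (log2 fold changes 1.88 and 1.69) and without Foxo1Ctrl 1 (1.71 and 1.58). It encodes a Sprouty protein that inhibits receptor signalling to Ras and ERK, and lies on chromosome 14 from 105891947 to 105896819, minus strand. Spry2 had 213, 273 and 368 normalized counts in Foxo1TKO 1, 2 and 3, and 35.8, 133 and 55.2 in Foxo1Ctrl 1, 2 and 3. All Foxo1TKO libraries were above the controls, among which Foxo1Ctrl 2 was far above the other two. Means of 285 ± 78.2 and 74.6 ± 51.3 normalized counts gave a log2 fold change of 1.92 (SE 0.47, 95% CI 0.83 to 3.01, edgeR adjusted p = 0.0218). Without Foxo1Ctrl 2 it was 2.62 (edgeR adjusted p = 0.00285). The call was lost without Foxo1TKO 2 (edgeR adjusted p = 0.0661), Foxo1TKO 3 (0.0643), Foxo1Ctrl 1 (0.0570) or Foxo1Ctrl 3 (0.0795), where the log2 fold changes were 1.58 to 1.94.

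The other Sprouty gene, Spry1, did not pass the test. Its position is chromosome 3 from 37639947 to 37644598, plus strand, where an unconfirmed gene model (type TEC) overlaps it on the opposite strand. Spry1 had 118, 77.2 and 96.6 normalized counts in Foxo1TKO 1, 2 and 3, and 90.6, 29.7 and 128 in Foxo1Ctrl 1, 2 and 3. The controls spanned the whole range of the Foxo1TKO libraries. Its log2 fold change of 0.23 had a wide interval (SE 0.48, 95% CI -0.87 to 1.33, edgeR adjusted p = 0.771), and turned to -0.15 without Foxo1Ctrl 2. The difference between the changes of Spry1 and Spry2 was not tested.

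Spred1 encodes one of the proteins that hold neurofibromin at the membrane. It lies on chromosome 2 from 117121374 to 117182279, plus strand, and had 145, 218 and 180.3 normalized counts in Foxo1TKO 1, 2 and 3, against 45.3, 105 and 59.1 in Foxo1Ctrl 1, 2 and 3. The groups did not overlap, and Foxo1Ctrl 2 was again the highest control. The log2 fold change was 1.36 (SE 0.35, 95% CI 0.55 to 2.18, edgeR adjusted p = 0.0261) between means of 181 ± 36.6 and 69.9 ± 31.4 normalized counts. The call was lost without Foxo1TKO 2 (edgeR adjusted p = 0.105), Foxo1TKO 3 (0.0597), Foxo1Ctrl 1 (0.0871) or Foxo1Ctrl 3 (0.0915), with log2 fold changes of 1.12 to 1.79 over the 6 fits.

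Spred2, its paralog with the same kind of activity, was the least abundant of the 10. It lies on chromosome 11 from 19924375 to 20024026, plus strand. Spred2 had 52.4, 33.3 and 67.6 normalized counts in Foxo1TKO 1, 2 and 3, and 37.0, 67.5 and 40.7 in Foxo1Ctrl 1, 2 and 3. The groups overlapped fully. The log2 fold change of 0.08 (SE 0.38, 95% CI -0.80 to 0.95, edgeR adjusted p = 0.910) changed sign with the library left out, to -0.17 without Foxo1TKO 3, -0.09 without Foxo1Ctrl 1 and -0.03 without Foxo1Ctrl 3. The interval of Spred2 includes changes in either direction.

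**Figure D2:**
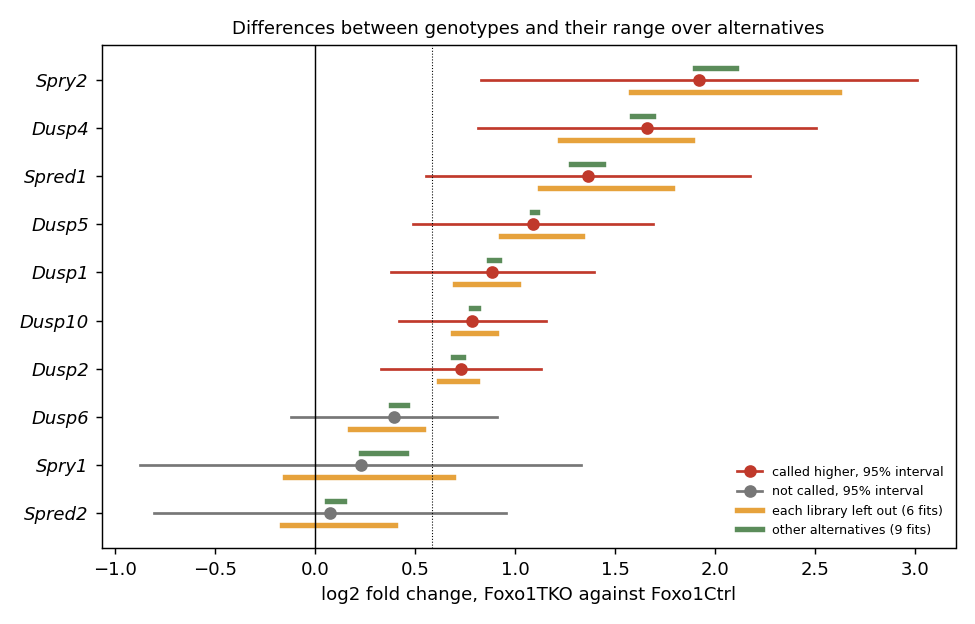
Log2 fold change (Foxo1TKO against Foxo1Ctrl) of each of the 10 genes by edgeR with its 95% confidence interval, and thick lines for the range over 6 fits with 1 library left out (below) and over 9 other alternatives (above); the dotted line is the fold limit of 1.5. The values run from 0.08 for Spred2 to 1.92 for Spry2, and the intervals of Dusp6, Spry1 and Spred2 include 0.

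The libraries did not rank alike for all genes. Among controls, Foxo1Ctrl 3 was the highest for 7 genes (the 6 Dusp genes and Spry1), whereas Foxo1Ctrl 2 was the highest for Spry2, Spred1 and Spred2 and the lowest for Dusp1, Dusp4, Dusp6, Dusp10 and Spry1. Among Foxo1TKO libraries, Foxo1TKO 1 was the highest for 5 genes (Dusp2, Dusp4, Dusp5, Dusp6 and Spry1) and the lowest for Dusp10, Spry2 and Spred1. Foxo1TKO 3 was the lowest for Dusp1, Dusp2, Dusp4, Dusp5 and Dusp6 and the highest for Dusp10, Spry2 and Spred2. For Dusp2 (565, 555 and 555 normalized counts) and Dusp10 (2066, 2075 and 2101) the Foxo1TKO libraries were nearly level, so their order means little there. Foxo1Ctrl 3 and Foxo1TKO 1, the highest of their genotypes for several phosphatases, were thus not the highest for Spry2 or Spred1.

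Levels of different genes were compared as TPM, the authors' values per length. In Foxo1TKO cells the order ran from Dusp10 (53.3 ± 4.07 TPM) and Dusp1 (53.2 ± 9.005) through Dusp2 (26.8 ± 2.83), Dusp6 (24.7 ± 7.93) and Dusp5 (19.2 ± 5.33) to Spry2 (9.74 ± 1.89). Dusp4 (3.53 ± 1.90 TPM), Spry1 (2.85 ± 0.780), Spred1 (2.08 ± 0.318) and Spred2 (0.853 ± 0.245) followed. Neighbours whose libraries overlapped were Dusp10 and Dusp1, then Dusp2, Dusp6 and Dusp5 in turn, then Dusp4, Spry1 and Spred1 in turn. Dusp1 was above Dusp2, Dusp5 above Spry2, Spry2 above Dusp4, and Spred1 above Spred2, without overlap of their TPM.

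In Foxo1Ctrl cells Dusp10 (29.9 ± 7.30 TPM) and Dusp1 (28.4 ± 9.92) were again the highest, followed by Dusp6 (17.3 ± 4.46), Dusp2 (15.997 ± 3.17) and Dusp5 (8.64 ± 2.88). Spry1 (2.39 ± 1.52 TPM) and Spry2 (2.38 ± 1.37) were level there, above Dusp4 (1.04 ± 0.252), Spred1 (0.803 ± 0.316) and Spred2 (0.733 ± 0.143). The steps without overlap between neighbours were those from Dusp2 to Dusp5, from Dusp5 to Spry1 and from Spry2 to Dusp4. In the order of mean TPM, Spry2 stood in place 7 in controls and in place 6 in Foxo1TKO cells, and Spry1 in place 6 and in place 8.

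Summed by family, the 6 Dusp genes held 181 ± 30.4 TPM in Foxo1TKO and 101.2 ± 26.0 TPM in Foxo1Ctrl libraries, a ratio of 1.79. The 2 Sprouty genes held 12.6 ± 1.58 against 4.77 ± 0.856 TPM (ratio 2.64) and the 2 Spred genes 2.94 ± 0.0723 against 1.54 ± 0.459 TPM (ratio 1.91). All 10 together held 168 to 226 TPM in Foxo1TKO and 80.2 to 132 TPM in Foxo1Ctrl libraries, so the ranges did not overlap. Most of the summed TPM was thus that of the phosphatases in both genotypes.

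Within the summed TPM of the 6 Dusp genes, Dusp10 kept about the same share, 29.8% ± 3.00 in Foxo1TKO and 29.5% ± 0.434 in Foxo1Ctrl libraries (n = 3). The share of Dusp6 was lower, 13.4% ± 2.07 against 17.1% ± 0.196, and that of Dusp4 higher, 1.88% ± 0.702 against 1.03% ± 0.0760. The shares of Dusp6 and of Dusp4 did not overlap between genotypes, and with 3 libraries a side no two-sided exact permutation test of them could give a p under 0.1. A lower share of Dusp6 beside higher counts of other members is a statement on proportions, not a fall of Dusp6, whose counts gave a fitted change above 0.

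**Figure D3:**
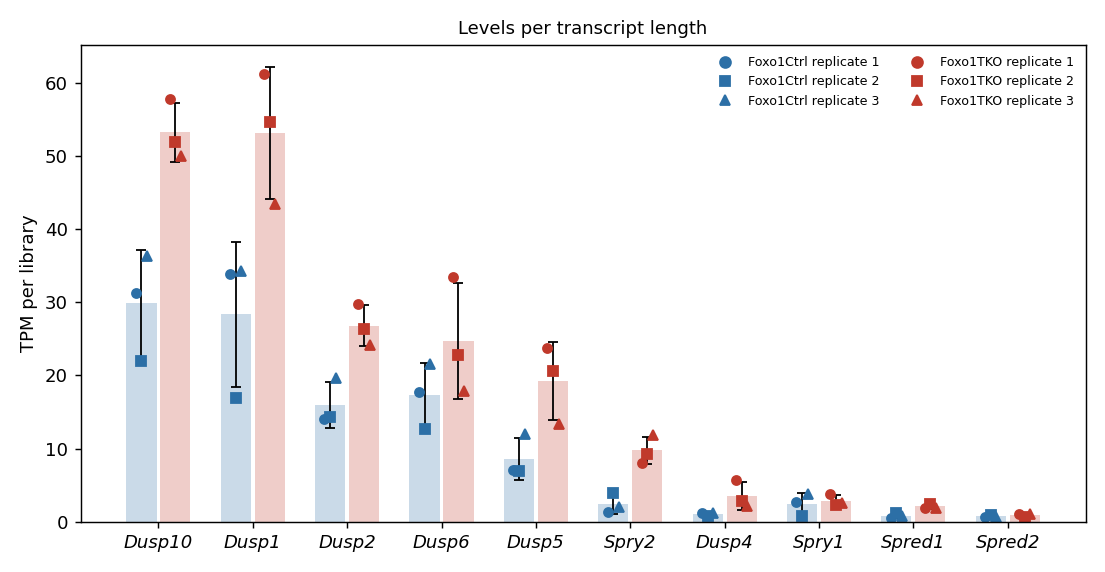
TPM of the 10 genes, ordered by mean in Foxo1TKO cells, with symbols for libraries, bars for the group mean and error bars for the SD (n = 3, Foxo1Ctrl blue and Foxo1TKO red). Dusp10 and Dusp1 are the highest in both genotypes (means 53.3 and 53.2 against 29.9 and 28.4 TPM) and Spred2 the lowest.

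The remaining MAP kinase phosphatases and Sprouty and Spred genes did not follow one direction. Dusp7, an ERK phosphatase of the cytoplasm and closest relative of Dusp6, fell, with 69.3, 50.0 and 39.7 normalized counts in Foxo1TKO 1, 2 and 3 against 205, 113 and 186 in Foxo1Ctrl 1, 2 and 3. The log2 fold change of Dusp7 was -1.64 (SE 0.33, edgeR adjusted p = 0.00993), and it was called without any one library. Dusp16, a phosphatase of JNK and p38, had 90.4, 86.0 and 146 against 52.5, 64.0 and 33.9 normalized counts, which did not overlap, but its log2 fold change of 1.09 (SE 0.35) missed the threshold (edgeR adjusted p = 0.0566). DESeq2's Wald test called Dusp16 (adjusted p = 0.0224). Dusp8 and Dusp9 had too few counts to be tested, as had Spry3 and Spry4. Spred3 had 12.4 ± 6.06 against 17.998 ± 7.19 normalized counts (log2 fold change -0.51, SE 0.51, edgeR adjusted p = 0.513).

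Atypical dual-specificity phosphatases, which lack the MAP kinase docking domain, were a further group. Of 11 listed, 8 were tested and none was called by edgeR at the threshold, while DESeq2 called 1. Of the tyrosine phosphatases that dock on MAP kinases only Ptpn7, the haematopoietic member, could be tested. Ptpn7 averaged 2015 ± 1294 normalized counts in Foxo1TKO and 1488 ± 736 in Foxo1Ctrl libraries (log2 fold change 0.44, SE 0.52, edgeR adjusted p = 0.592), and its value was -0.23 without Foxo1TKO 1.

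The other genes of the pathway were described by 10 lists with 83 tested genes, among which 9 were higher and 12 lower. This share of 25.3% was near the 23% of all genes tested, with a median log2 fold change of 0.12. Besides the cascade, the lists hold the further phosphatases, Sprouty and Spred genes above and the ERK-responsive transcripts below. The ERK-responsive transcripts gave 5 of the 9 higher genes and 1 of the 12 lower, and Dusp7 was another of the 12. The genes named in what follows are those of the naming rule, which itself takes from most lists the called genes of largest change. Rasa2, Map3k8, Egr3 and Btg2 lie outside the rule and were chosen after their values were seen.

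Among 7 Ras exchange factors and adaptors, 1 rose and 3 fell. Rasgrp1, the main exchange factor of the T-cell receptor pathway, rose from 3122 ± 746 to 6453 ± 555 normalized counts (log2 fold change 1.05, SE 0.19, edgeR adjusted p = 0.00690). Rasgrp2, which activates Rap1 more than Ras, fell from 767 ± 179 to 56.7 ± 19.8 (log2 fold change -3.73, SE 0.33, edgeR adjusted p = 0.000265). Sos1 fell as well (log2 fold change -1.32, SE 0.30, edgeR adjusted p = 0.0162), a call lost without Foxo1TKO 3 (adjusted p = 0.0519). The call of Sos2 (log2 fold change -0.61, edgeR adjusted p = 0.0429) was lost without any one library, at adjusted p-values up to 0.137. Exchange factors thus moved in both directions.

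Of the 7 Ras GTPase-activating proteins tested 2 fell and none was called higher. Rasa2, chosen after its values were seen, had an edgeR adjusted p of 0.0475 with a log2 fold change of 0.54, under the fold limit, and the median of the list was 0.32. Rasa3 fell from 2117 ± 633 to 693 ± 301 normalized counts (log2 fold change -1.61, SE 0.34, edgeR adjusted p = 0.0120), although not without Foxo1TKO 2 (adjusted p = 0.0570), and Rasa1 by 0.68 on the log2 scale (edgeR adjusted p = 0.0428), a call lost without any one library. Among 5 Ras genes tested, Rras2 fell from 417 ± 124 to 59.6 ± 16.9 normalized counts (log2 fold change -2.79, SE 0.32, edgeR adjusted p = 0.000972). Of 14 ERK cascade kinases and scaffolds, 12 did not pass the test. Shoc2, a scaffold that helps to activate Raf, fell (log2 fold change -0.82, SE 0.17, edgeR adjusted p = 0.0108).

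In the list of the JNK and p38 branches, 2 of the 22 genes tested rose, 3 fell and 17 did not pass the test. Gadd45b, an activator of the p38 and JNK kinases upstream, rose from 95.6 ± 10.5 to 449.6 ± 46.0 normalized counts (log2 fold change 2.22, SE 0.20, edgeR adjusted p = 0.000302). Map3k8, counted in this list although it is a kinase upstream of MEK, was also higher (log2 fold change 1.28, edgeR adjusted p = 0.00270). The 3 that fell were Map3k5 (log2 fold change -2.16, edgeR adjusted p = 0.000558), Map3k1 (-1.80, 0.0160) and Map3k3 (-1.44, 0.0134). Map3k1 was not called without Foxo1TKO 2 (edgeR adjusted p = 0.0729) or Foxo1TKO 3 (0.0539), and Map3k3 not without Foxo1TKO 2 (0.0609) or Foxo1Ctrl 3 (0.0502).

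Of 16 tested transcripts that ERK signalling is known to induce, 5 were called higher, against 11.1% of all genes tested, and 1 lower. That was the largest share called higher among the 10 pathway lists, and the median log2 fold change was 0.43. The summed level of the list overlapped between genotypes, at 740 to 977 TPM in Foxo1TKO and 587 to 1024 TPM in Foxo1Ctrl libraries. Btg2, the 1 called lower, had the most normalized counts of the list in both genotypes (10703 ± 1723 against 22172 ± 1547). Its fall thus weighs on the sum against the genes that rose, and its part in the overlap was not tested. Egr1, an immediate-early factor of the EGR family, averaged 1399 ± 525 against 469 ± 228 normalized counts (log2 fold change 1.57, SE 0.39, edgeR adjusted p = 0.0218), but not past the threshold without Foxo1TKO 1 (adjusted p = 0.0507) or Foxo1Ctrl 1 (0.0766). Fos, a subunit of AP-1, rose from 175 ± 83.1 to 500.3 ± 64.6 normalized counts (log2 fold change 1.51, SE 0.32, edgeR adjusted p = 0.0130). Myc rose from 1585 ± 350.3 to 5619 ± 774 (log2 fold change 1.82, SE 0.20, edgeR adjusted p = 0.000762). Phlda1 (log2 fold change 1.59, edgeR adjusted p = 0.0147) and Egr3 (1.41, 0.00757) were the others that rose, and Btg2, an antiproliferative gene, fell (-1.05, 0.00373). Etv5, an ETS factor, had a log2 fold change of 1.46 but few counts and an edgeR adjusted p of 0.0780.

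**Figure D4:**
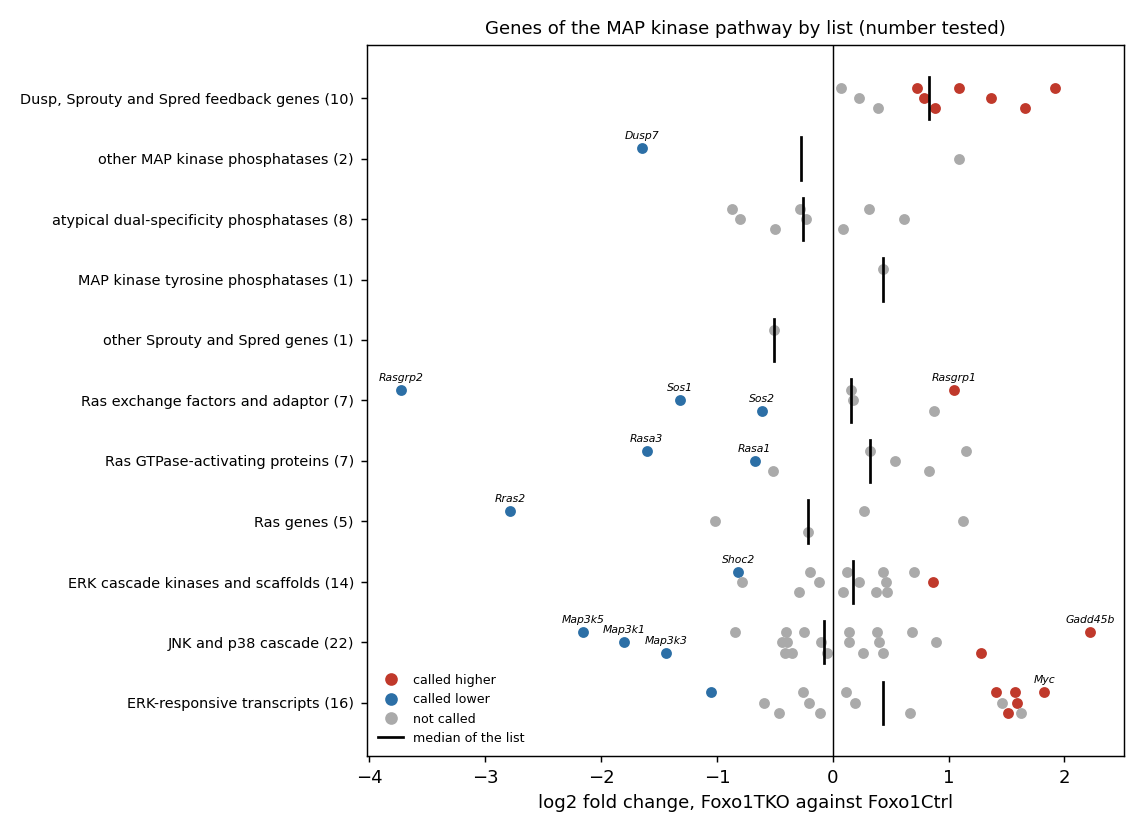
Log2 fold change (Foxo1TKO against Foxo1Ctrl) of every tested gene of the 10 feedback genes and of each pathway list, 1 point per gene, with called genes marked by colour and some of them named. The feedback genes lie at or above 0 with a median of 0.84, whereas the lists of exchange factors, Ras genes and kinases spread to both sides, from Rasgrp2 at -3.73 to Gadd45b at 2.22.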

How the data were processed

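RNA-seq data of 3 Foxo1TKO and 3 Foxo1Ctrl libraries were used, grouped by the titles and genotypes of their labels. According to the submitters' processing notes and the methods, reads were aligned with STAR 2.7.6a to GRCm38 and counted with RSEM 1.3.1; strandedness and trimming are not given in the sources used here. The authors deposited RSEM expected counts, which share a read between the genes it maps to and are not normalized, with TPM and FPKM and effective lengths per gene. The authors also deposited a normalized signal per gene, made with DESeq2. No pair of libraries was alike (Pearson's r within a genotype 0.952 to 0.979).

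Expected counts were rounded and genes kept that reached 10 counts in 3 or more libraries, 13691 of 55487 and 99.9% of counts. They were tested with edgeR 4.0.16 (glmQLFTest after glmQLFit, TMM scaling, a prior count of 1) under R 4.3.3, genotype being the sole covariate. Standard errors are the log2 fold change divided by the root of F. Normalized counts are counts scaled to the mean effective library size. Intervals use the moderated degrees of freedom. The members and gene lists were chosen with earlier results of these data known, so none is independent evidence of its direction. The genes named are the 10, Foxo1, every tested further MAP kinase phosphatase, docking tyrosine phosphatase, Sprouty and Spred gene, up to 4 called genes per other list with the largest change, a mean of at least 100 counts and no overlap, and Fos, Egr1, Etv5 and Myc. Some genes that this rule gives are not reported here. Positions came from GENCODE M21 and promoters from RefSeq (GRCm38.p6).

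On simulated counts with 200 changed genes among 13691, edgeR recovered 33.8% of 2-fold, 92.4% of 4-fold and 98.5% of 8-fold changes, and 2.61% of its calls were false. Far fewer genes were changed there than were called in the data, so these shares do not carry over to the comparison of genotypes. Alternatives were DESeq2 1.42.0, limma-voom (limma 3.58.1), other scalings, filters and thresholds, limma on log2 of the normalized signal + 1, FPKM, the replicate number as a block and each library left out. Figures were drawn with matplotlib 3.10.9.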

Additional observations from a re-analysis of the deposited data

How the results depend on the processing

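The count of feedback genes called stayed at 7, with the same 7 genes, under DESeq2's Wald test, limma-voom, DESeq2 size factors, upper quartile scaling, effective length offsets, filterByExpr, no filter, limma on the normalized signal and no limit on the fold change. It was 4 at a fold change over 2 (Dusp4, Dusp5, Spry2 and Spred1) and 2 to 7 with 1 library left out. Over all genes, calls ran from 1854 to 3321 with 1 library left out (3144 with all 6), those higher from 874 to 1701 and those lower from 980 to 1620; the count without Foxo1Ctrl 2 was the highest, and the cause was not tested. The labels do not say that same-numbered replicates of the genotypes belong together, and the correlations of their deviations, 0.43, 0.20 and -0.11, were not all above 0.1, so they were not treated as paired. With the replicate block 7 of the 10 genes and 3318 genes in all were called. With 1 library left out, the log2 fold changes ran from -0.15 (without Foxo1Ctrl 2) to 0.69 for Spry1, from -0.17 (without Foxo1TKO 3, with -0.09 without Foxo1Ctrl 1 and -0.03 without Foxo1Ctrl 3) to 0.40 for Spred2 and from -0.23 (without Foxo1TKO 1) to 0.73 for Ptpn7, none of which was called. The ratio of summed levels was 1.82 in TPM and 1.90 in FPKM. With 3 libraries a side, 2-fold changes were recovered in 33.8% of simulated cases, where 200 genes were changed. In the data 3144 genes were called, so the adjustment of p-values differs and this share does not carry over. Genes not called may still differ.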
